A study of Mus musculus with 26 samples.

Results

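The effect of the FFAR3 agonist AR420626 on cultured lung group 2 innate lymphoid cells (ILC2s) after 6 days was measured by RNA-sequencing in 10 of the 26 libraries of the series. They are the vehicle and AR420626 cultures of the same 5 mice, chosen by their deposited labels and compared within each mouse. All 5 mice were wild-type females of CC030/GeniUnc, a strain bred from the founders of the Collaborative Cross, age-matched adults by the study's methods. ILC2s were flow-sorted from unchallenged lungs and plated at 3000 cells per well. Every culture, vehicle included, held IL-33 at 10 ng/mL, TSLP at 10 ng/mL and human IL-2 at 100 U/mL, so the comparison is between activated cells with DMSO and activated cells with AR420626 at 10 µM. There was 1 concentration, no untreated culture and no receptor-deficient control, and the strain is a single genotype. A further 10 libraries of the same mice were harvested at day 2, and 3 naïve C57BL6J and 3 naïve CC030 libraries were never cultured.

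ILC2s are tissue-resident lymphocytes that carry no antigen receptor and answer the epithelial cytokines IL-33 and TSLP with type 2 cytokines. FFAR3 is a G protein-coupled receptor for short-chain fatty acids that couples to inhibitory G proteins and so lowers cyclic AMP. Activated lymphocytes are held in check by surface receptors such as TIGIT, an immunoglobulin-family receptor that binds CD155 and CD112 and carries an inhibitory tail, and by the CD200 receptor family, of which some members inhibit and others signal through activating adaptors.

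Genes of chromosome 16 and of the mitochondrial chromosome (M) are described apart from all others, because the CC030 reads were aligned to an mm9 pseudogenome and converted to mm10 coordinates, and positions of these chromosomes nearly agree between the builds. Levels on chromosome 16 correlated with those of naïve C57BL6J ILC2s across 411 genes (Spearman rho 0.687), as did those of 11 genes on chromosome M (rho 0.945), while on the 19 other chromosomes rho lay between -0.282 and 0.0352. When the profile along the chromosome was moved in steps of 50 bp, 44 of 47 windows of 4 Mb on chromosome 16 matched best within 200 bp of no shift, against 118 of 1226 windows elsewhere. Of 470 chromosome 16 genes tested, 461 lay in such windows, and none of the other 9 passed the test. A single matching window sufficed, with no minimum correlation, which is looser than the rule used below for other chromosomes. The window chr16:40000001-44000000, which covers Tigit and Gap43, matched weakly (r = 0.452, next best 0.382). So did chr16:92000001-96000000, which covers Runx1 (0.443 and 0.335). Windows centred on Tigit, Gap43 and Runx1 matched best without a shift (r = 0.756, 0.72 and 0.782, next best 0.317, 0.52 and 0.329). Genes across a chromosome are not independent replicates, and the correlations are given as a description. Values of genes outside these places are counts listed under a symbol, and whether they belong to that gene cannot be told from the table.

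**Figure D1:**
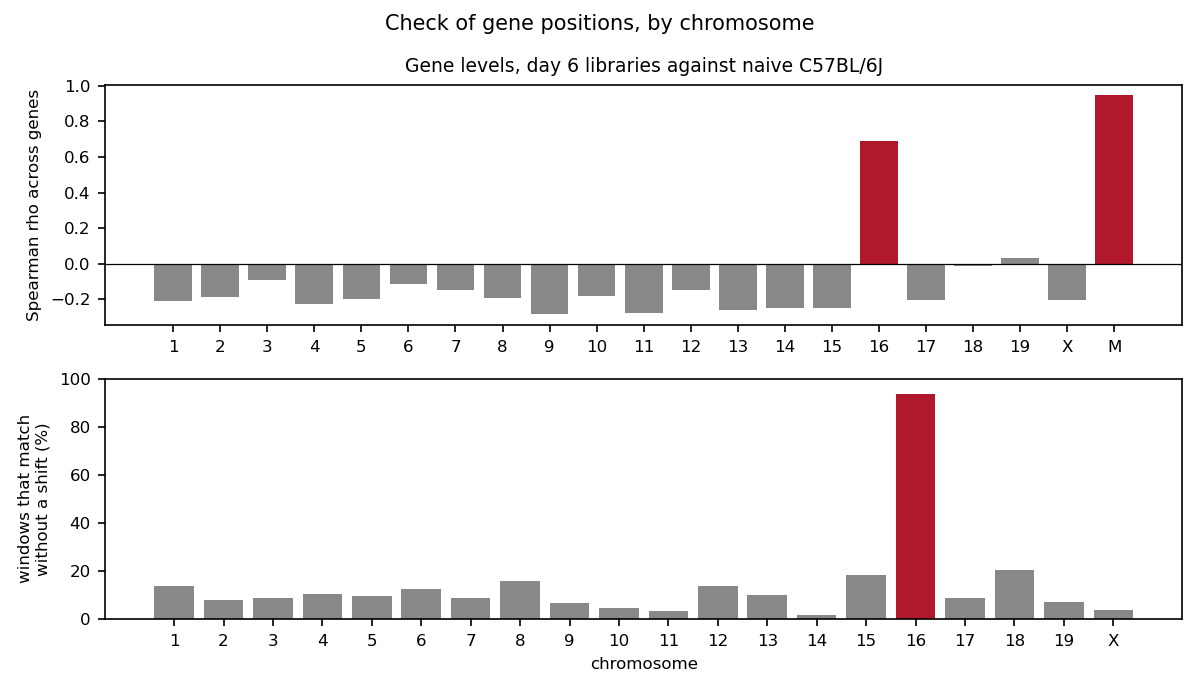
Check of gene positions. The upper bars give Spearman rho across genes between the mean level of the 10 day 6 libraries and that of naïve C57BL6J libraries for each chromosome, and the lower bars give the percentage of 4 Mb windows whose best match lay within 200 bp of no shift. Chromosomes 16 and M (red) stand at 0.687 and 0.945 in the upper bars, and the 19 other chromosomes (grey) reach at most 0.0352.

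Libraries held 1143405 to 3420893 counts in genes with vehicle and 1080761 to 1420240 with AR420626. Counts in genes made up 5.31 to 7.16% of reads with vehicle and 4.76 to 5.64% with AR420626. Mitochondrial genes took 7.03 to 11.9% of counts in genes with vehicle and 5.56 to 6.67% with AR420626. Vehicle mouse 4 was the deepest library and had the lowest TMM factor (0.711), and AR420626 mouse 2 had the highest (1.43). Of the genes that define ILC2s, Id2, Icos, Thy1 and Il2ra lie on other chromosomes and had too few counts under their symbols to be tested, so the cell type label could not be checked at those positions. Areg, whose protein the study measured, also had too few counts to be tested. Markers of B cells, neutrophils and platelets on chromosome 16 were at or near 0. None of 5 B cell genes, 6 neutrophil genes and 2 platelet genes passed the filter, and the highest counts in any library were 20, 8 and 6. The summed level of the B cell genes ranged from 3.35 to 18.3 CPM (reads in a gene scaled by library size) with vehicle and from 0 to 25.6 CPM with AR420626, that of the neutrophil genes from 0 to 7.76 and from 3.49 to 13.6 CPM, and that of the platelet genes from 0 to 2.68 and from 0.975 to 4.17 CPM. The 4 epithelial genes summed to 23.3 to 55 CPM and 31.6 to 54.9 CPM, and neither of the 2 tested passed.

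The first of the 3 promoters shown is that of the receptor gene that rose most among the protein-coding genes of chromosome 16. The others are those of 2 CD200 receptor family genes that fell. All are the 250 bases before the RefSeq start on GRCm38.p6, written 5′ to 3′ on the gene's own strand. The RefSeq start of Cd200r4 lies inside the span annotated for that gene here (chr16:44811733-44839150). In that of Tigit (chr16:43664185-43664434, minus strand), capitals mark a GATA motif (AGATAA) and a RUNX motif on the opposite strand (TGTGGT, read here as ACCACA) that begins 140 bases before the start. In those of Cd200r3 (chr16:44943428-44943677, plus strand) and Cd200r4 (chr16:44820478-44820727, plus strand), capitals mark a run of 32 bases that the 2 promoters share, which begins 124 bases before the start of Cd200r3 and 50 bases before that of Cd200r4. Motifs are not capitalized in these 2, and the GATA motif also occurs in the Cd200r3 promoter, where it begins 39 bases before the start.
Tigit: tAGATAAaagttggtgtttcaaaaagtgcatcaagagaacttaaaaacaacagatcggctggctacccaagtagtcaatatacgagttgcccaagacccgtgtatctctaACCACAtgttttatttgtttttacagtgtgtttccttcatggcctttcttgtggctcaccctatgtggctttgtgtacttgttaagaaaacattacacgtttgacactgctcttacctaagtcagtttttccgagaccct
Cd200r3: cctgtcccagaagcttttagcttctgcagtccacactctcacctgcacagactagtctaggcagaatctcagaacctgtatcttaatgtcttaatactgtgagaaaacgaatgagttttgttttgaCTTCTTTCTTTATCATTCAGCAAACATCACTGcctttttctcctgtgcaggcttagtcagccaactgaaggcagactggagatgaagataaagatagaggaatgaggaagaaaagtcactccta
Cd200r4: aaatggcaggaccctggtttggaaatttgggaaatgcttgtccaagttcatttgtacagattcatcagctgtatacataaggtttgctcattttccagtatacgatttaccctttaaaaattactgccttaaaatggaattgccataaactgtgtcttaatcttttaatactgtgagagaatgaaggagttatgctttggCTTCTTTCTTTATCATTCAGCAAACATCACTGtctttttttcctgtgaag
Of 32851 promoters of this length, 14% held the RUNX motif and 9.99% the GATA motif on either strand, and a match describes the letters, not binding.

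At day 6 and among all 9421 genes tested, 311 rose (3.30%) and 767 fell (8.14%) with AR420626, 11.4% in all, at an adjusted p under 0.05 by edgeR's quasi-likelihood test paired by mouse. On chromosomes 16 and M, 24 of 493 genes rose (4.87%) and 87 fell (17.6%). These counts depend on the scale. The usual normalization (TMM) was set by all genes, most of which lie at positions in doubt, and the cause of the dependence was not tested. Scaled instead to the genes of chromosomes 16 and M, log2 fold changes moved up by a median of 0.30, the median over all genes went from 0.10 to 0.40, and 660 genes rose (7.01%) and 417 fell (4.43%). On chromosomes 16 and M 48 genes then rose (9.74%) and 44 fell (8.92%), and the median there went from -0.26 to 0.04. Scaling to these genes draws their median towards no change by construction. The share of rises among the calls there went from 21.6% to 52.2%. The 24 rises were called on both scales, as were 44 of the falls, and 43 falls passed on the first scale only and 24 rises on the second only. No gene was called in opposite directions. Since the second scale moved fold changes up, a rise called on the first was likely to stay called. Being called on both scales is therefore a stricter condition for falls than for rises, here and below. All 24 rises and 82 of the 87 falls went the same way in 5 of 5 mice. The ranges of vehicle and AR420626 did not overlap for 15 of the 24 rises and 35 of the 44 falls, beside 17.4% of all 493 genes tested. Leaving out mouse 1 left 35 falls and leaving out mouse 4 left 48, while rises stayed between 19 and 25 without any 1 mouse. Fold changes below are on the first scale, and the second is given where it changes a call. An exact sign-flip test of 5 pairs cannot go below p = 0.063, the value reached where all 5 mice agree in sign.

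Among receptors that control lymphocytes, the inhibitory receptor gene Tigit rose and Cd200r3 and Cd200r4 fell. Tigit (chr16:43648867-43664146, minus strand) was at 15.5, 14.4, 4.43, 14.4 and 10 CPM with vehicle and 387, 124, 412, 221 and 272 CPM with AR420626, in mice 1 to 5. Even the lowest AR420626 culture, that of mouse 2, was above every vehicle culture. The means were 11.8 ± 4.61 and 283 ± 119 CPM (SD, n = 5). The gene was 21.9-fold higher with AR420626 (log2 fold change 4.45 ± 0.33, SE, n = 5 pairs, edgeR adjusted p = 7.76e-11). Per kb of exon, its mean level was 12.8 CPM with vehicle and 308 CPM with AR420626. In bulk libraries, more cells that express a gene and more RNA per cell cannot be told apart.

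Cd200r3 (chr16:44943678-44981380, plus strand) encodes a CD200 receptor family member that pairs with an activating adaptor and is known from mast cells and basophils. Its levels were 302, 204, 132, 518 and 142 CPM with vehicle and 9.29, 5.23, 6.26, 24.4 and 10.1 CPM with AR420626. The lowest vehicle culture was above the highest AR420626 culture, which was that of mouse 4. The means were 259.5 ± 159.6 and 11.1 ± 7.72 CPM (SD, n = 5). The gene was 23.8-fold lower (log2 fold change -4.57 ± 0.29, SE, edgeR adjusted p = 3.39e-12). Cd200r4, of the same family and also of the activating kind, had 471, 209, 140, 832 and 229 CPM with vehicle. With AR420626 it had 95.7, 22.1, 72, 49.7 and 71.4 CPM, without overlap, and was 5.40-fold lower (-2.43 ± 0.33, edgeR adjusted p = 4.43e-06). Reads of these related genes may be shared between them, so the split between Cd200r3 and Cd200r4 is uncertain. Cd200r2 fell on the first scale only (log2 fold change -1.31 ± 0.39, edgeR adjusted p = 0.0248, and 0.116 on the second). The inhibitory receptor Cd200r1 was at 668 to 2080 CPM with vehicle and 809 to 1470 CPM with AR420626, ranges that overlap, and did not pass (0.17 ± 0.25).

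Alcam, an adhesion molecule that binds CD6, rose 2.05-fold (1.04 ± 0.23, edgeR adjusted p = 0.00238), from 149, 119, 104, 204 and 133 CPM with vehicle to 349, 253, 298, 307 and 229 CPM with AR420626. The lowest AR420626 value was above the highest vehicle value. Cd200, the ligand of the CD200 receptors, and Cd47, the "do not eat me" signal to phagocytes, were called as rising on the second scale only, with log2 fold changes of 1.06 and 0.72 on the first (edgeR adjusted p = 0.0585 and 0.0586) and 1.38 and 1.02 on the second (0.0185 and 0.00124). Cd47 was at 748 to 1930 CPM with vehicle and 1290 to 1920 CPM with AR420626. Of 12 members tested of 16 listed, 2 rose and 3 fell on the first scale, and 4 rose and 2 fell on the second, with a median log2 fold change of 0.46 and 0.76 beside 0.10 and 0.40 over all genes and -0.26 and 0.04 over those of chromosomes 16 and M. Over chromosomes 16 and M, 4.87% rose and 17.6% fell on the first scale and 9.74% and 8.92% on the second. Members that did not pass on either scale include Cd96, a receptor of the same ligand family as TIGIT (0.82), Btla (0.20), Cd80 (0.16) and Nectin3 (0.72).

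Among all genes called on chromosomes 16 and M, Gap43 had the deepest fall. Gap43 (chr16:42248442-42340651, minus strand), a membrane-anchored protein known from growing axons, was at 822, 373, 473, 851 and 301 CPM with vehicle and 19.5, 2.33, 28.2, 19.5 and 18.3 CPM with AR420626. Vehicle and AR420626 cultures did not overlap, and AR420626 libraries held 4 to 27 counts. Per kb of exon, the mean level was 370 CPM with vehicle and 11.5 CPM with AR420626. The gene was 33.8-fold lower (log2 fold change -5.08 ± 0.35, SE, edgeR adjusted p = 1.61e-11). Ccdc80, a secreted matrix protein, had 91.3, 64.2, 62.8, 99.5 and 102 CPM with vehicle and 8.36, 15.7, 11.5, 8.78 and 12.8 CPM with AR420626, without overlap (-2.84 ± 0.30, edgeR adjusted p = 8.37e-08). Cldnd1, a claudin-like membrane protein, fell by 2.18 on the log2 scale.

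St6gal1 (chr16:23224740-23360350, plus strand), which adds α2,6-linked sialic acid to N-glycans, rose in every mouse. Its levels were 97.3, 75.3, 77, 60.5 and 53.5 CPM with vehicle and 443, 270, 395, 499 and 316 CPM with AR420626, 5.27-fold higher (2.40 ± 0.24, edgeR adjusted p = 3.51e-08). B630019A10Rik, a transcript that lies 294 bases before St6gal1, rose with it (log2 fold change 3.27), and the counts cannot tell it from extended St6gal1 transcripts on the same strand. Sidt1, a transmembrane protein of the double-stranded RNA transporter family, had 21.5, 20.3, 24.8, 14 and 19.4 CPM with vehicle and 93.9, 88.9, 115, 158 and 124 CPM with AR420626, with no overlap and a 5.76-fold rise (2.53 ± 0.27, edgeR adjusted p = 9.73e-08). Epha3, an ephrin receptor, rose from a low level (2.33 ± 0.41, edgeR adjusted p = 0.000233), but the 23.3 CPM of vehicle mouse 1 equalled the 23.3 CPM of AR420626 mouse 2. Of 11 members tested of the 15 transport and adhesion genes listed, 1 rose (St6gal1) and 1 fell (Gap43) on both scales. Their median log2 fold change was 0.05 on the first scale and 0.34 on the second. Over all tested genes of chromosomes 16 and M, 4.87% rose and 17.6% fell on the first scale and 9.74% and 8.92% on the second. The medians there were -0.26 and 0.04.

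**Figure D2:**
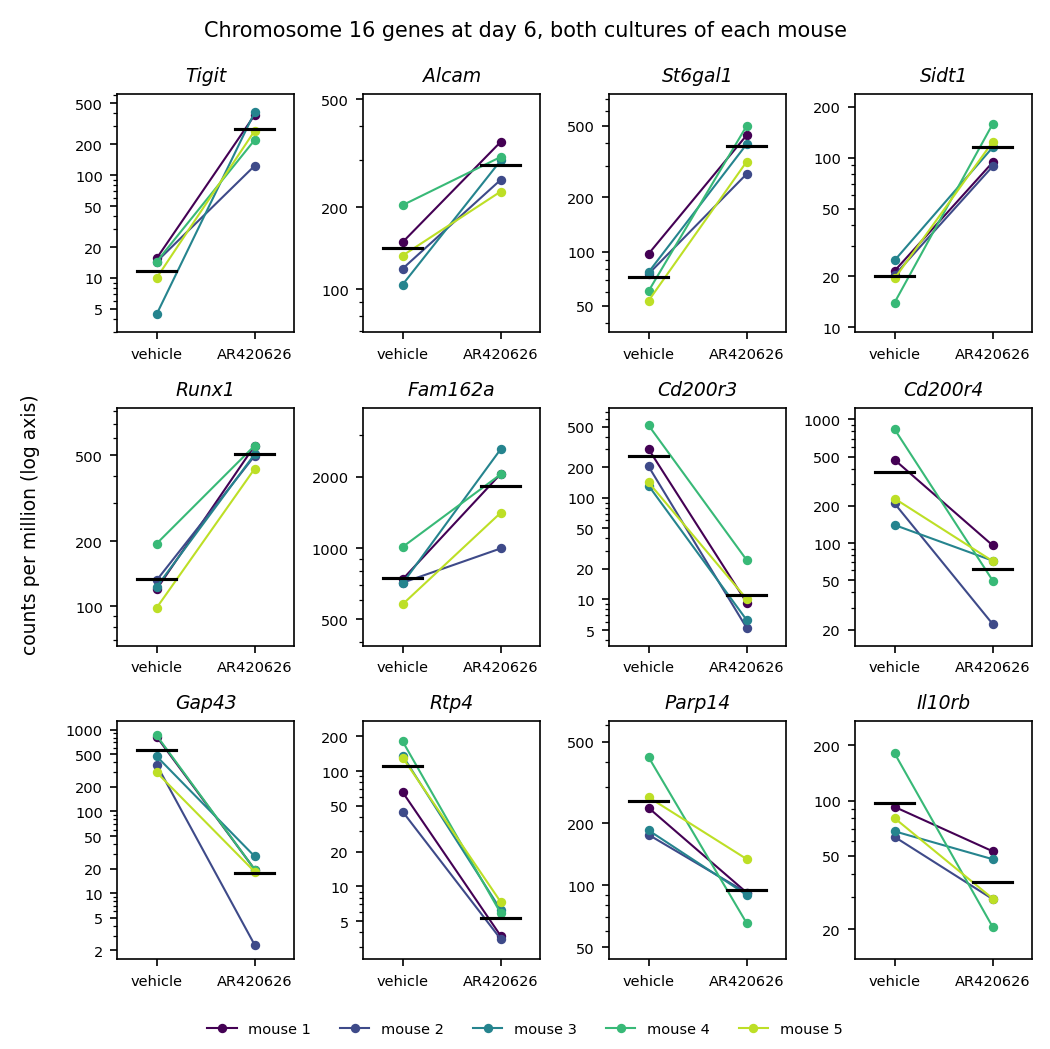
Levels of 12 chromosome 16 genes at day 6 in CPM on log axes, with 1 line for each of the 5 mice joining its vehicle and AR420626 culture and black bars at the means. Tigit, Alcam, St6gal1, Sidt1, Runx1 and Fam162a rise in every mouse and Cd200r3, Cd200r4, Gap43, Rtp4, Parp14 and Il10rb fall in every mouse. Vehicle mouse 4 is the highest vehicle culture in several of the genes that fall.

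Receptors and response genes of interferon and IL-10 fell or did not pass. Of 10 tested of 11 listed, 7 fell and 0 rose on the first scale and 3 fell (Rtp4, Parp14 and Il10rb) and 0 rose on the second, with a median log2 fold change of -0.90 and -0.59. Beside them, 17.6% of all tested genes of chromosomes 16 and M fell on the first scale and 8.92% on the second, with medians of -0.26 and 0.04, and 8.14% and 4.43% of all genes fell. Rtp4 (chr16:23520291-23614222, plus strand), an interferon-induced chaperone of G protein-coupled receptors, had 65.6, 44.5, 136, 181 and 131 CPM with vehicle and 3.72, 3.49, 6.26, 5.85 and 7.32 CPM with AR420626. The groups were far apart, and AR420626 libraries held 4 to 8 counts each. It was 19.3-fold lower (-4.27 ± 0.32, SE, edgeR adjusted p = 7.76e-11). Its annotated span overlaps Masp1, which did not pass (0.67).

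Parp14, an ADP-ribosyltransferase that is induced by interferon and acts with STAT6, fell from 238, 176, 185, 420 and 268 CPM with vehicle to 92, 91.9, 89.7, 65.3 and 134 CPM with AR420626, without overlap (-1.39 ± 0.26, edgeR adjusted p = 0.000401). Parp9 (-0.82) and Dtx3l (-0.89), which form a complex with each other, fell on the first scale only. Il10rb, the shared receptor chain of IL-10 and the type III interferons, was at 92.5, 63.5, 68.1, 181 and 80.3 CPM with vehicle and 53, 29.1, 48, 20.5 and 29.3 CPM with AR420626, and each AR420626 culture was below every vehicle culture. It was 2.58-fold lower (-1.37 ± 0.30, edgeR adjusted p = 0.00247, and 0.0123 on the second scale). It overlaps Gm21970, a model that also spans the end of Ifnar2. Ifnar1 (-0.93) and Ifnar2 (-0.91), the chains of the type I interferon receptor, fell on the first scale only (edgeR adjusted p = 0.0117 and 0.0272, and 0.0614 and 0.143 on the second). Ifngr2, a chain of the interferon-γ receptor (-0.70), and Il1rap, which the IL-33 receptor needs to signal (-0.38), did not pass on the first scale (edgeR adjusted p = 0.0642 and 0.429). Mx2, an interferon-response gene of the same list, went the other way, with log2 fold changes of 0.81 and 1.12 on the first and second scale. It did not pass on either, and it lies outside the chromosome 16 windows that matched without a shift.

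Of the transcription factors and signalling genes of immune cells, Runx1 and Litaf rose on both scales. Runx1 (chr16:92601466-92826149, minus strand), a DNA-binding subunit of core binding factor that lymphoid cells depend on, had 120, 132, 123, 195 and 98.4 CPM with vehicle and 555, 498, 507, 555 and 434 CPM with AR420626. The ranges did not overlap, and vehicle mouse 4 was the highest vehicle culture. It was 3.89-fold higher (1.96 ± 0.23, SE, edgeR adjusted p = 4.8e-07), with a mean of 11.1 and 42.4 CPM per kb of exon. Litaf, a regulator of endosomal trafficking, rose less (0.70 ± 0.23, edgeR adjusted p = 0.0453), from 73.5 to 165 CPM with vehicle to 171 to 211 CPM with AR420626. Mir155hg, the host transcript of miR-155, rose by 1.18 on the log2 scale (SE 0.34, edgeR adjusted p = 0.0187) with ranges that overlap.

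Nrip1, a nuclear receptor corepressor, fell on both scales (-1.24, and -0.94 on the second), from 548, 512, 339, 950 and 434 CPM with vehicle to 216, 249, 238, 192 and 213 CPM with AR420626, without overlap. Nlrc3 (-0.75), an inhibitory NOD-like receptor, and Zbtb20 (-0.73), a zinc finger repressor, fell on the first scale only, and Etv5, an ETS factor, rose on the second only (0.81). In all, 2 of 27 members tested of 29 listed rose and 3 fell on the first scale and 3 rose and 1 fell on the second, with medians of -0.26 and 0.05. These are close to the shares and medians of all tested genes of chromosomes 16 and M, of which 4.87% rose and 17.6% fell on the first scale and 9.74% and 8.92% on the second, with medians of -0.26 and 0.04. Socs1, the inhibitor of JAK-STAT signalling, was at 779 to 1560 CPM and 912 to 1150 CPM and did not pass (-0.01). Tnp2, a gene of spermatids, was called as rising by 2.90 ± 0.30 (edgeR adjusted p = 5.7e-08) and lies 2400 bases from Socs1, and its counts rose from 9.55, 13.1, 31.9, 12.3 and 23.4 CPM with vehicle to 126, 43.6, 142, 174 and 193 CPM with AR420626.

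Several of the largest changes on chromosome 16 belong to transcripts that overlap other genes. Gm15558 rose most of these (log2 fold change 3.81 ± 0.27, edgeR adjusted p = 2.5e-11), with 25.1, 20.3, 15.9, 28.4 and 22.8 CPM with vehicle and 382, 177, 405, 340 and 336 CPM with AR420626. It lies on the opposite strand inside Clec16a, which did not pass (-0.36), and the kit keeps no strand information. Cmss1 (1.55) overlaps Filip1l, and 4931406G06Rik (1.74) overlaps 4932438H23Rik (1.54), so reads of each pair can be split. Carhsp1, a cold shock protein that stabilizes TNF mRNA (-1.64), overlaps Pmm2 (-1.45), a glycosylation enzyme. Cpox, of haem synthesis, fell by 1.77 (SE 0.25, edgeR adjusted p = 1.34e-05), from 208, 203, 149, 305 and 196 CPM with vehicle to 73.4, 32.6, 76.1, 67.3 and 65 CPM with AR420626. Atg3, which conjugates LC3 in autophagy, fell by 1.60, and its ranges of 250 to 781 CPM with vehicle and 134 to 158 CPM with AR420626 did not overlap.

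Of the genes of translation and protein turnover, 21 of 23 listed were tested, of which 7 fell and 0 rose on the first scale and 5 fell and 0 rose on the second, with medians of -0.55 and -0.24. Over all tested genes of chromosomes 16 and M, 17.6% fell on the first scale and 8.92% on the second, with medians of -0.26 and 0.04. The 5 were the ribosomal protein genes Rpl24 (-1.11) and Rpl35a (-1.15), the chaperonin subunit Cct8 (-1.10), the acetyltransferase Naa60 (-1.25) and the HSP70 family member Hspa13 (-1.10). Hspa13 went from 676, 598, 466, 1180 and 449 CPM with vehicle to 297, 296, 305, 285 and 287 CPM with AR420626, and every AR420626 culture was below every vehicle culture. Usp25 and Ube2l3, of the ubiquitin system, fell on the first scale only.

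For the mitochondria, genes of the nucleus and of chromosome M were counted apart, beside all tested genes of chromosomes 16 and M, of which 4.87% rose and 17.6% fell on the first scale and 9.74% and 8.92% on the second, with medians of -0.26 and 0.04. Of 16 nuclear genes listed and tested, 1 rose (Fam162a) and 3 fell (Mrpl40, Trmt10c and Pmm2) on the first scale, and 3 rose (Fam162a, Atp5j and Slc25a1) and 2 fell (Mrpl40 and Pmm2) on the second, with medians of -0.31 and -0.01. Pmm2 acts in glycosylation rather than in mitochondria. Fam162a, a hypoxia-responsive protein, had 737, 713, 709, 1010 and 578 CPM with vehicle and 2060, 996, 2620, 2050 and 1410 CPM with AR420626, where AR420626 mouse 2 was below vehicle mouse 4, and rose 2.35-fold (1.23 ± 0.25, edgeR adjusted p = 0.00113). Of 14 tested RNAs of chromosome M listed, 3 fell and 0 rose on the first scale and 0 fell and 1 rose on the second, with medians of -0.62 and -0.32. Chromosome M also took a smaller share of the counts with AR420626 (5.56 to 6.67%) than with vehicle (7.03 to 11.9%), and the part of this in the calls was not tested. The falls, none of which passed without mouse 1 or without mouse 4, were of the ribosomal RNA mt-Rnr2 (-0.95), the cytochrome oxidase subunit mt-Co3 (-0.87) and the complex I subunit mt-Nd5 (-0.88), and the rise was of mt-Nd3, another complex I subunit (0.64 on the first scale and 0.95 on the second). Outside the list, the transfer RNA genes mt-Tp (1.11 ± 0.26, edgeR adjusted p = 0.00432) and mt-Tq (1.13 ± 0.28, 0.00659) rose on both scales. Both are encoded on the strand opposite to most mitochondrial genes, and their reads cannot be told from those of transcripts that run through them.

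The remaining lists held few calls, beside the same shares and medians of chromosomes 16 and M (4.87% and 17.6%, then 9.74% and 8.92%, and -0.26 and 0.04). Of 18 tested genes of DNA replication and the cell cycle among 19 listed, 2 fell (Cep97 and Umps) and 0 rose on the first scale, and on the second 0 fell and 1 rose (Mcm4, a helicase subunit, 0.38 on the first and 0.68 on the second), with medians of -0.48 and -0.18. Umps acts in pyrimidine synthesis, and neither call passed without mouse 1, 2 or 4. Of 11 tested genes of cyclic AMP and kinase signalling among 12 listed, Dgkg, a diacylglycerol kinase, rose on both scales (1.58 ± 0.41, edgeR adjusted p = 0.00869) and Mylk, the myosin light chain kinase, on the second only (1.56), with medians of -0.10 and 0.19. The adenylyl cyclases Adcy5 (0.78) and Adcy9 (-0.64) did not pass. All 3 resistin-like genes were below the filter, with at most 7 counts in a library.

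**Figure D3:**
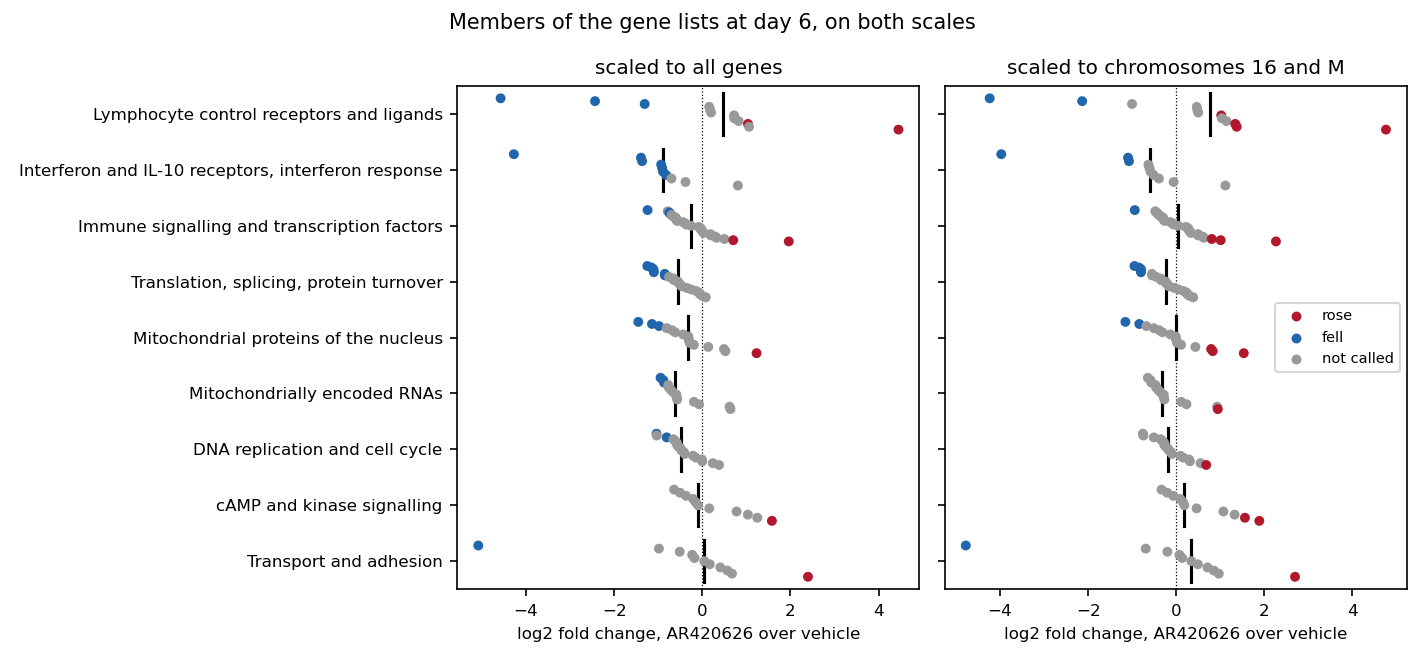
Log2 fold change of AR420626 over vehicle for the tested members of 9 gene lists on chromosomes 16 and M, scaled to all genes (left) and to the genes of chromosomes 16 and M (right). Each point is a gene, coloured by its call, and black bars mark list medians, such as -0.90 and -0.59 for the interferon and IL-10 list, while Tigit, St6gal1 and Runx1 are far right and Gap43, Cd200r3 and Rtp4 far left in both panels.

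At day 2, no effect of AR420626 was called on chromosomes 16 and M. In the fit of all 20 cultured libraries, 0 of 753 such genes were called at day 2 by edgeR, with 47 at an unadjusted p under 0.05. The day 2 libraries stood further apart than those of day 6. Counts in genes ran from 1139210 to 5320028 with vehicle and from 227445 to 1171015 with AR420626 at day 2, and chromosome M took 15.5 to 56.6% of them with vehicle and 2.46 to 13.4% with AR420626. TMM factors ran from 0.199 to 2.66 over the day 2 libraries, vehicle mouse 5 was the deepest with the lowest factor and AR420626 mouse 4 the shallowest, and the common dispersion was 0.391 in this fit against 0.135 in that of day 6. Without mice 4 and 5, a choice made after seeing the data, the dispersion was 0.164 and 1 of 820 genes, Tmem41a (-2.44, edgeR adjusted p = 0.0454), was called at day 2, with 68 at an unadjusted p under 0.05. Levels at day 2 are scaled by those factors. Tigit was at 0.895 to 8.42 CPM with vehicle and 2.64 to 5.20 CPM with AR420626 at day 2, and at 5.60 to 33.4 and 152.6 to 536 CPM at day 6 in that fit. Cd200r3 was at 12.5 to 62.6 CPM and 12.8 to 45.9 CPM at day 2, overlapping ranges, against 166.7 to 1200 CPM and 6.42 to 31.8 CPM at day 6. Gap43 was at 4.18 to 133.7 CPM with vehicle and 3.32 to 18.4 CPM with AR420626 at day 2.

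The difference of the AR420626 effect between days was called for 12 of 23141 genes tested (0.0519%), of which 1, Cd200r3, lies on chromosome 16. Its effect changed by -4.66 ± 0.90 (SE) on the log2 scale (edgeR adjusted p = 0.0273), from -0.22 at day 2 to -4.88 at day 6. The call was lost without mouse 1, 2, 3 or 4 and without the pairing by mouse, and was made without mouse 5 and without mice 4 and 5 together (-4.42, edgeR adjusted p = 0.000304). Tigit (4.02, edgeR adjusted p = 0.105) did not pass in this fit, but passed on the second scale, without mouse 5, without mice 4 and 5 (4.13, edgeR adjusted p = 0.0135) and by DESeq2 (adjusted p = 0.000377). Tigit was not called without mouse 1, 2, 3 or 4, without the pairing by mouse or with DESeq2 size factors in edgeR. Gap43 (-3.80, edgeR adjusted p = 0.656) passed by DESeq2 alone (adjusted p = 0.0411) and had a difference of -2.48 without mice 4 and 5 (edgeR adjusted p = 0.734). By DESeq2 15 genes of chromosomes 16 and M were called, and without mice 4 and 5 edgeR called 5 (Cd200r3, Tigit, Sidt1, B630019A10Rik and Gm15558). Among the 753 genes of chromosomes 16 and M, 54 had an unadjusted p under 0.05.

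Elsewhere in the genome, 287 of 8928 genes (3.21%) were called as rising and 680 (7.62%) as falling on the first scale. On the second scale 612 (6.85%) rose and 373 (4.18%) fell, so that the share of rises among the calls went from 29.7% to 62.1%. Over all 9421 genes tested, 3.30% rose and 8.14% fell on the first scale and 7.01% and 4.43% on the second. Short stretches of other chromosomes also matched the naïve C57BL6J profile without a shift. Where every covering window did so with a correlation of at least 0.6 and a margin of at least 0.2 over shifted positions, a rule set after the data were seen, 377 genes on 10 chromosomes were tested, and 18 rose and 70 fell on the first scale and 40 rose and 40 fell on the second. The 18 rises and 40 of the falls were called on both. The median log2 fold change of the 377 genes was -0.28 on the first scale and 0.03 on the second, beside 0.10 and 0.40 over all genes. Of the 18 rises, 16 went the same way in 5 of 5 mice, as did 62 of the 70 falls. The ranges of vehicle and AR420626 did not overlap for 12 of the 18 rises and 34 of the 40 falls called on both scales. Of all 377 genes tested there, 22% had ranges that did not overlap. Without mouse 1 or without mouse 4, 36 falls were called. The genes named from them were chosen after their values were seen.

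Tnfsf13b on chromosome 8, the B cell survival factor BAFF, rose from 14.3, 21, 21.2, 20.3 and 20.7 CPM with vehicle to 111, 80.2, 153, 127 and 116 CPM with AR420626. No AR420626 culture came near the vehicle range (log2 fold change 2.56 ± 0.26, edgeR adjusted p = 3.58e-08). Nearby, the collagen IV genes Col4a2 (2.87 ± 0.30, edgeR adjusted p = 5.87e-08) and Col4a1 (2.00 ± 0.30, 1.97e-05), whose starts overlap, rose together. Col4a2 was at 8.35, 15.1, 16.8, 11.9 and 17.4 CPM with vehicle and 137, 154, 69.9, 77 and 84.2 CPM with AR420626, without overlap. Pfkp, the platelet-type phosphofructokinase of glycolysis, had 305, 289, 259, 372 and 272 CPM with vehicle and 1680, 1210, 1340, 1520 and 792 CPM with AR420626 (2.10 ± 0.24, edgeR adjusted p = 3.67e-07). It overlaps Pitrm1, which was called as rising by 2.28. Crem, a cyclic AMP-responsive transcription factor, rose in 4 of 5 mice (0.87, edgeR adjusted p = 0.0224).

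Falls in these stretches included Klf6, Birc3, Fosl1 and Malat1. Klf6, a zinc finger factor induced early on stimulation, had 303, 349, 255, 633 and 298 CPM with vehicle and 133, 103, 85.5, 115 and 105 CPM with AR420626, without overlap (-1.70 ± 0.24, edgeR adjusted p = 1.12e-05). Birc3, an inhibitor of apoptosis and NF-κB target, had 315, 241, 181, 547 and 294 CPM with vehicle and 151, 101, 105, 112 and 91.5 CPM with AR420626 and fell by 1.41 on the log2 scale (SE 0.25, edgeR adjusted p = 0.000199). Its paralog and neighbour Birc2 fell by 1.06. Fosl1, a subunit of AP-1, was at 18.5, 21, 33.6, 31.3 and 10.7 CPM with vehicle and 7.43, 5.23, 9.39, 6.83 and 3.66 CPM with AR420626, again without overlap (-1.78 ± 0.44, edgeR adjusted p = 0.0066). The nuclear long noncoding RNA Malat1 was at 39400, 20700, 19600, 54300 and 21300 CPM with vehicle and 15800, 9660, 14700, 8810 and 12700 CPM with AR420626, and fell by 1.23 (SE 0.31, edgeR adjusted p = 0.00704). Neat1 fell on the first scale only (-0.79, edgeR adjusted p = 0.0305, and 0.12 on the second). Cfl1 (-1.15) and Coro1b (-1.63), which act on actin, and Cpt1a (-0.96) and Crot (-1.06), which handle fatty acids for oxidation, also fell.

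**Figure D4:**
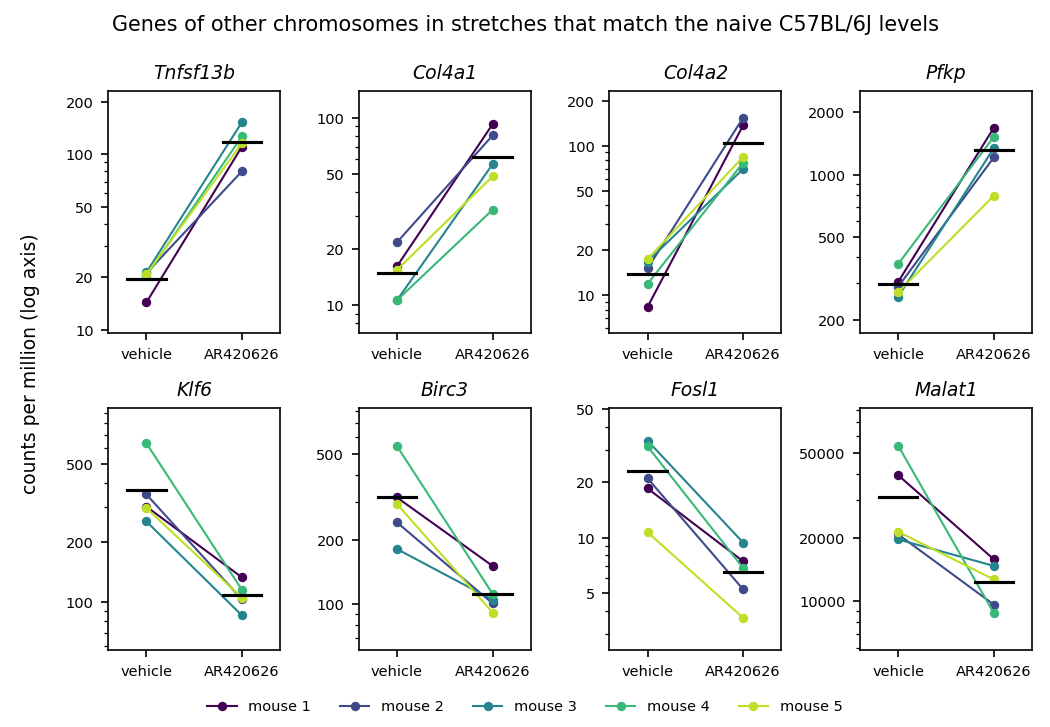
Levels of 8 genes on other chromosomes, in stretches that match the naïve C57BL6J profile without a shift, in CPM on log axes with 1 line per mouse and black bars at the means. Tnfsf13b, Col4a1, Col4a2 and Pfkp rise and Klf6, Birc3, Fosl1 and Malat1 fall in all 5 mice.

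Genes that the study measured or that define ILC2s lie outside the matching stretches. Counts listed under Egfr, the epidermal growth factor receptor, were 22, 19, 5, 8 and 29 with vehicle and 560, 1173, 459, 663 and 402 with AR420626, and did not overlap. Its log2 fold change was 5.76 ± 0.36 (SE, edgeR adjusted p = 3.39e-12), and the difference from day 2 was 5.03 (edgeR adjusted p = 0.0273). Around Egfr the levels of naïve cells did not match without a shift (r = -0.26), and the best shift (r = 0.479) was hardly better than the next (0.447), so the gene to which these counts belong was not resolved. By flow cytometry the study found more EGFR protein on ILC2s cultured with AR420626 than with vehicle, which these counts do not measure. Il10 was listed at 0 to 9 counts with vehicle and 0 to 6 with AR420626 and was not tested, and neither were Il5 and Il13. Under the symbols Mki67 (-1.16) and Gata3 (-1.57) counts fell, while those under Rora (-0.05), Il7r (1.25) and Il1rl1 (-0.49) did not pass. At the protein level the study reported similar fractions of Ki-67+ cells, with a small difference that was statistically significant. The largest changes elsewhere with a mean of at least 50 counts were listed under Egfr, Pear1 (4.04), Gm37844 (3.98), Gabrd (3.96) and Gm47079 (3.87) for rises and 2010109I03Rik (-5.86), Ccr3 (-4.44), Gm15295 (-4.43), Mmp16 (-3.80) and Ms4a6d (-3.27) for falls. Of these, only around Gm37844 did the levels of naïve cells match best without a shift (r = 0.899, next best 0.335). A window that covers Gm37844 fell short of the margin set for the matching stretches.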

How the data were processed

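RNA-sequencing of cultured ILC2s was analysed as vehicle and AR420626 libraries of 5 mice at day 6, grouped by their deposited labels. The authors trimmed reads with fastp, aligned CC030 reads to an mm9 pseudogenome with STAR, converted them to mm10 coordinates with lapels and counted them per gene with HTSeq; the deposited values are raw counts, neither normalized nor filtered. Libraries were made with SMART-Seq v4, which keeps no strand, and the sources used here name neither the annotation nor the strand setting of HTSeq. Symbols and positions were matched by gene identifier on GRCm38 (55141 of 55401 identifiers). The 5 HTSeq summary rows were left out of tests, and reads that HTSeq assigned to no feature made up 81.3 to 85.3% of all reads.

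Counts were filtered with filterByExpr (minimum count 10, minimum total 15), scaled by TMM and tested with edgeR 4.0.16 in R 4.3.3 by the robust quasi-likelihood F-test with mouse as a block, since both cultures came from the same mouse. Deviations of the same mouse in both groups correlated with r = 0.0188, 0.292, -0.0924, 0.108 and -0.00342. SE was derived from the F statistic. The Benjamini-Hochberg adjustment ran over all genes, with 0.05 as the threshold. The second scale used TMM factors of genes on chromosomes 16 and M in the fit of all genes and was chosen after seeing the data. Differences between days were tested as an interaction in the 20 cultured libraries. CPM are TMM-scaled. In data simulated for the day 6 comparison over 9421 genes, 28% of genes changed 2-fold and 87% of those changed 4-fold were called, with 7 false calls, and counting error limits genes with few counts. Positions were compared in 4 Mb windows moved by 2 Mb, at shifts of up to 1 Mb.

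The members and gene lists were chosen with earlier results of these data known. Named on chromosomes 16 and M were Tigit, Cd200r3, Gap43, Il10rb, Il1rap, the 10 largest rises and falls that went the same way in 5 pairs and averaged 50 counts or more, and up to 4 members of each list with the smallest p; other genes named there complete a count or a family and were chosen after their values were seen. Elsewhere they were genes the study measured, genes that define ILC2s, the 5 largest rises and falls, and genes of matching stretches. Alternatives were DESeq2 1.42.0, its size factors, other filters, protein-coding genes only, thinned counts, no block, each mouse left out, mice 4 and 5 left out together (chosen after seeing the data) and other scalings.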

Additional observations from a re-analysis of the deposited data

Results flagged for a closer look

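In 13 of 132 groups of 5 libraries, 1 library lay far from the other 4. The measure was its gap to the nearest other library over the range of the group, both on log2(CPM + 0.5). Levels are printed in CPM, from which the ratios cannot be read directly. Chance flags about 1 in 20 groups (5%). AR420626 mouse 2, which also had the highest TMM factor, was lowest for Gap43 (2.33 CPM against 18.3 to 28.2 in the others, ratio 0.818), Gm15558 (177 against 336 to 405, 0.774), Tnp2 (43.6 against 126 to 193, 0.714), Carhsp1 (62.8 against 109 to 128, 0.775), Cpox (32.6 against 65 to 76.1, 0.813) and Mrpl40 (87.2 against 227 to 318, 0.74). Vehicle mouse 4, the deepest library, was highest for Carhsp1 (514 against 273 to 302, 0.842), Cdc45, a replication factor (259 against 85.9 to 107, 0.797), and Naa60 (285 against 153 to 173, 0.797). Single libraries also stood apart for Cmss1 (vehicle mouse 1 lowest, 63.2 against 88.1 to 92.4, 0.874), Dgkg (vehicle mouse 1 highest, 17.9 against 6.02 to 7.86, 0.761), Cep97 (AR420626 mouse 4 lowest, 21.5 against 50.2 to 67.7, 0.738) and Gart, of purine synthesis (vehicle mouse 3 lowest, 121 against 169 to 193, 0.722).

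The AR420626 effect was called as different between day 6 and day 2 for Cd200r3, by -4.66 on the log2 scale. So were the counts listed under Egfr, by 5.03, both by the edgeR interaction test over all genes. The Cd200r3 call was lost without mouse 1, 2, 3 or 4 and without the pairing by mouse, and was made without mouse 5. For Egfr such dependence was not examined, and the gene to which its counts belong was not resolved.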

How the results depend on the processing

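On chromosomes 16 and M (24 rises and 87 falls), DESeq2 called 131 falls, no filter gave 11 rises, protein-coding genes alone 15 rises, the fit of these chromosomes alone 67 rises (edgeR gave this fit an infinite median prior degrees of freedom, against 24.6 in the fit of all genes), and the second scale 48 rises and 44 falls. Without 1 mouse, rises ranged from 19 to 25 and falls from 35 to 109. In the matching stretches (18 and 70), DESeq2 called 106 falls, no filter gave 8 rises, at least 10 counts in every library 33 rises, protein-coding genes 11 rises and the second scale 40 rises and 40 falls, and ranges without 1 mouse were 12 to 19 and 36 to 77. Elsewhere (287 and 680), DESeq2 called 178 rises, no filter gave 109 rises, the filter of at least 10 counts in every library 474 rises and 442 falls and the second scale 612 and 373, with ranges without 1 mouse of 173 to 341 and 377 to 746. The cause was not tested. Without the replicate block by mouse, 21 genes rose and 88 fell on chromosomes 16 and M, 16 and 67 in the matching stretches and 260 and 626 elsewhere. Of the 111 calls on chromosomes 16 and M, 107 were called in the same direction by DESeq2, 103 without the block, 54 without mouse 1, 69 without mouse 4 and 68 on the second scale, and 0 in the opposite direction under any alternative.

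The difference between days on chromosomes 16 and M was called for 1 gene, for 15 with DESeq2, 2 with at least 10 counts in every library, 0 without the replicate block, 4 in the fit of these chromosomes alone, 4 on the second scale, 5 without mice 4 and 5 and 0 to 3 without 1 mouse. The Rora log2 fold change moved around 0, with 0.14 under at least 10 counts in every library, -0.207 to 0.143 without 1 mouse and 0.254 on the second scale. Over the named genes and all alternatives, 823 values kept direction and call, 53 lost the call, 12 gained one and 4 changed sign. Genes with few counts, such as Rtp4 and Gap43 with AR420626, carry the most counting error.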
